A study of Mus musculus with 24 samples.

Results

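The mitochondrial biogenesis and dynamics genes described here are 10 genes, measured in samples of 24 mice that are labelled brown adipose tissue (BAT). They are the PGC-1 coactivators Ppargc1a and Ppargc1b, the factors Tfam, Nrf1 and Gabpa, the fusion GTPases Opa1, Mfn1 and Mfn2, the fission GTPase Dnm1l and the protease gene Oma1. All were taken by symbol from a table of 12615 genes, and all 10 were present and passed the filter on low counts, as did 12485 genes in all. The mice formed 4 groups of 6. Every mouse was TBLR1 fl/fl;TBL1 fl/fl, that is, floxed for both corepressor genes, and was treated with tamoxifen 3 weeks before the temperature protocol. BATdKO mice also carried Ucp1CreERT2, a Cre recombinase that tamoxifen activates and that is made under the Ucp1 promoter, which limits recombination to cells that use this promoter, and the controls (Cre-) lacked it. Mice were raised at 22°C. Those labelled 30°C, close to thermoneutrality, went there directly for 4 days, and those labelled 8°C passed 1 day each at 18°C, 16°C and 12°C before 6 days at 8°C, whereas the published text gives a shorter cold exposure. The labels describe females, the published legends describe males, and the age at tamoxifen is given in the labels with a unit that is not plausible for mice and is not used here.

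Brown fat burns fuel in its mitochondria to make heat, and a longer cold exposure is known to go with more mitochondria and more respiratory capacity per cell. PGC-1α, encoded by Ppargc1a, is a coactivator induced through β-adrenergic and cyclic AMP signalling. It works through DNA-binding factors, among them the nuclear respiratory factors NRF1 and GABPA, which drive nuclear genes for respiratory subunits and for TFAM, the protein that packages mitochondrial DNA and starts its transcription. Mitochondria also fuse and divide. The mitofusins MFN1 and MFN2 join outer membranes, OPA1 joins inner membranes and shapes cristae, DRP1 (encoded by Dnm1l) constricts the organelle, and the stress-activated protease OMA1 cuts OPA1.

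The libraries held 699703 to 11527643 counts each. The labelled tissue was checked first. All 11 brown adipocyte markers were measured, and their summed share of a library's counts was 0.0888% to 0.466% in Cre- mice at 30°C (median 0.177%), 0.296% to 0.521% in Cre- mice at 8°C (median 0.394%), 0.151% to 0.460% in BATdKO mice at 30°C (median 0.359%) and 0.325% to 0.544% in BATdKO mice at 8°C (median 0.451%). The 10 hepatocyte markers, led by Alb at a median of 10368 CPM (counts scaled to the library total), together held 2.86% to 4.48% of every library, and none of these 10 was at 0 in any library, while among the brown adipocyte markers Dio2 was at 0 in 1 library. The hepatocyte share was thus above the brown adipocyte share in all 24 libraries, with group medians of 4.06%, 3.44%, 3.77% and 3.55% in the same order. The tissue is therefore named by its label here, and the levels of the genes below are not assigned to a cell type. Skeletal muscle markers (14 of 15 in the table) ranged from 0.000941% to 1.04%, the highest values being those of m3 and m1 of the Cre- group at 30°C, and mouse m4 of that group had the fewest counts. None of 4 B cell markers was in the table. In the cold, with the test described next, 5 of 11 brown adipocyte markers were called higher and 1 (Adipoq) lower in each genotype, 0 of 10 hepatocyte markers were called in either genotype (unadjusted p under 0.05 for 0 in Cre- and 3 in BATdKO mice), 3 of 5 endothelial markers in Cre- and 2 of 5 in BATdKO mice were called higher, 3 of 14 muscle markers in Cre- mice and 3 of 6 progenitor markers in BATdKO mice were called lower, 1 of 2 white adipocyte markers (Lep) was called lower in each genotype, and 0 of 5 macrophage markers were called (unadjusted p under 0.05 for 0 and 1). DESeq2 called 0 of these hepatocyte and macrophage markers too, 3 of the progenitor markers in BATdKO mice, and 0 of the muscle markers in Cre- mice. Between genotypes, all 14 muscle markers had negative fitted differences under the BATdKO label, with medians of -3.06 at 8°C and -3.11 at 30°C. At each temperature 12 of them had an unadjusted p under 0.05, and neither edgeR nor DESeq2 called any (0 of 14). The median muscle shares were close at 30°C, 0.0289% in Cre- and 0.0241% in BATdKO mice, where m3 and m1 of the Cre- group held 1.04% and 0.461%. At 8°C the medians were 0.051% in Cre- and 0.00655% in BATdKO mice. In Cre- mice the median share was thus higher in the cold, although the muscle markers called with cold were lower. The 6 progenitor markers all had negative values for genotype at 8°C (median -0.37), with 1 at an unadjusted p under 0.05 and 0 called by either tool. A sum of 4 adipocyte markers (Adipoq, Fabp4, Plin1 and Pparg) was also taken. It held medians of 0.0971% and 0.134% in Cre- mice at 30°C and 8°C, and of 0.202% and 0.184% in BATdKO mice. Fabp4 weighed most in this sum, with a median of 1132 CPM against 166 (Adipoq), 184 (Plin1) and 22.3 (Pparg). Adipoq was called lower with cold in each genotype, so the sum is no neutral measure of adipocyte content. The part of this tissue make-up in the results below was not tested beyond the fits given with them. In bulk RNA, fewer cells of a type and less RNA per cell cannot be told apart.

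**Figure D1:**
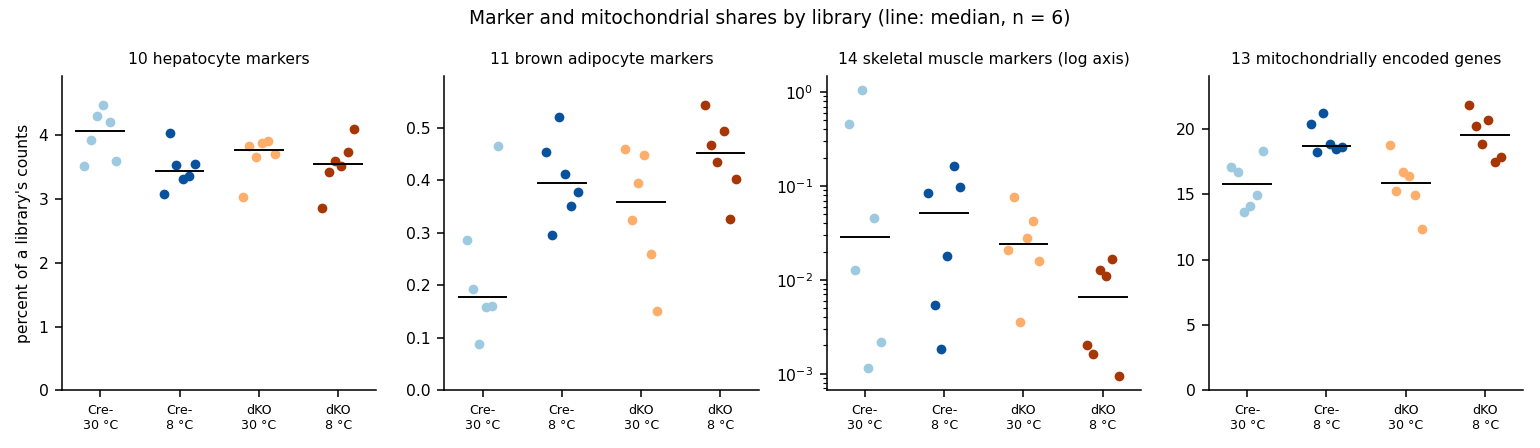
Share of each library's counts, in percent, on hepatocyte, brown adipocyte and skeletal muscle markers and on the 13 mitochondrially encoded protein genes, by group, with points for mice and lines for medians of 6. The hepatocyte share lies between 2.86% and 4.48% in all groups, while the brown adipocyte share does not exceed 0.544%.

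At 8°C both targeted genes were more abundant under the BATdKO label. Tbl1xr1, which encodes TBLR1, differed there by a log2 fold change of 0.92 (SE 0.17, adjusted p = 0.00348) and Tbl1x by 0.39 (SE 0.10, adjusted p = 0.0633). At 30°C edgeR called neither, and the groups overlapped. Tbl1xr1 ran from 16.4 to 38.6 CPM in Cre- and from 17.0 to 42.0 CPM in BATdKO mice. Tbl1x ran from 31.4 to 53.5 and from 39.7 to 59.9 CPM. The libraries hold tags from the 3′ ends of transcripts, and the place of the floxed exons relative to the tags was not available here, so these counts do not check the deletion and the groups are called by their labels throughout. Values per mouse are CPM with library totals corrected by the trimmed-mean (TMM) method, which makes mice comparable for a gene. Differences are log2 fold changes from a single edgeR quasi-likelihood model of all 24 libraries, and a gene is called where its Benjamini-Hochberg adjusted p over the 12485 genes is below 0.1, the threshold of the study. Of all genes tested, 9.15% were called for cold in Cre- mice (695 higher and 448 lower), 7.07% for cold in BATdKO mice (470 higher and 413 lower) and 1.82% for genotype at 8°C. With library totals in place of TMM factors the median gene moved by -0.20 in Cre- and -0.19 in BATdKO mice, and the share of cold calls that were higher went from 60.8% to 13.3% and from 53.2% to 9.07%, so that each difference below is relative to the bulk of the genes.

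In Cre- mice, 3 of the 10 genes were called in the cold, Ppargc1a, Ppargc1b and Gabpa, all of them higher, against 9.15% of all genes called and 5.57% called higher. In BATdKO mice only Ppargc1a was called of the 10, against 7.07% of all genes called and 3.76% called higher. None of the 10 was called for genotype at 8°C (1.82% of all genes), for genotype at 30°C (0% of all genes) or for the interaction of genotype and temperature (0.0961% of all genes). In these 3 comparisons edgeR gave an unadjusted p under 0.05 for 0, 1 and 0 of the 10, and DESeq2 called 0 of the 10 in each. The fusion and fission genes, Oma1, Tfam and Nrf1 had fitted differences between -0.17 and 0.21 in all 4 pairwise comparisons, and none of these was called.

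**Figure D2:**
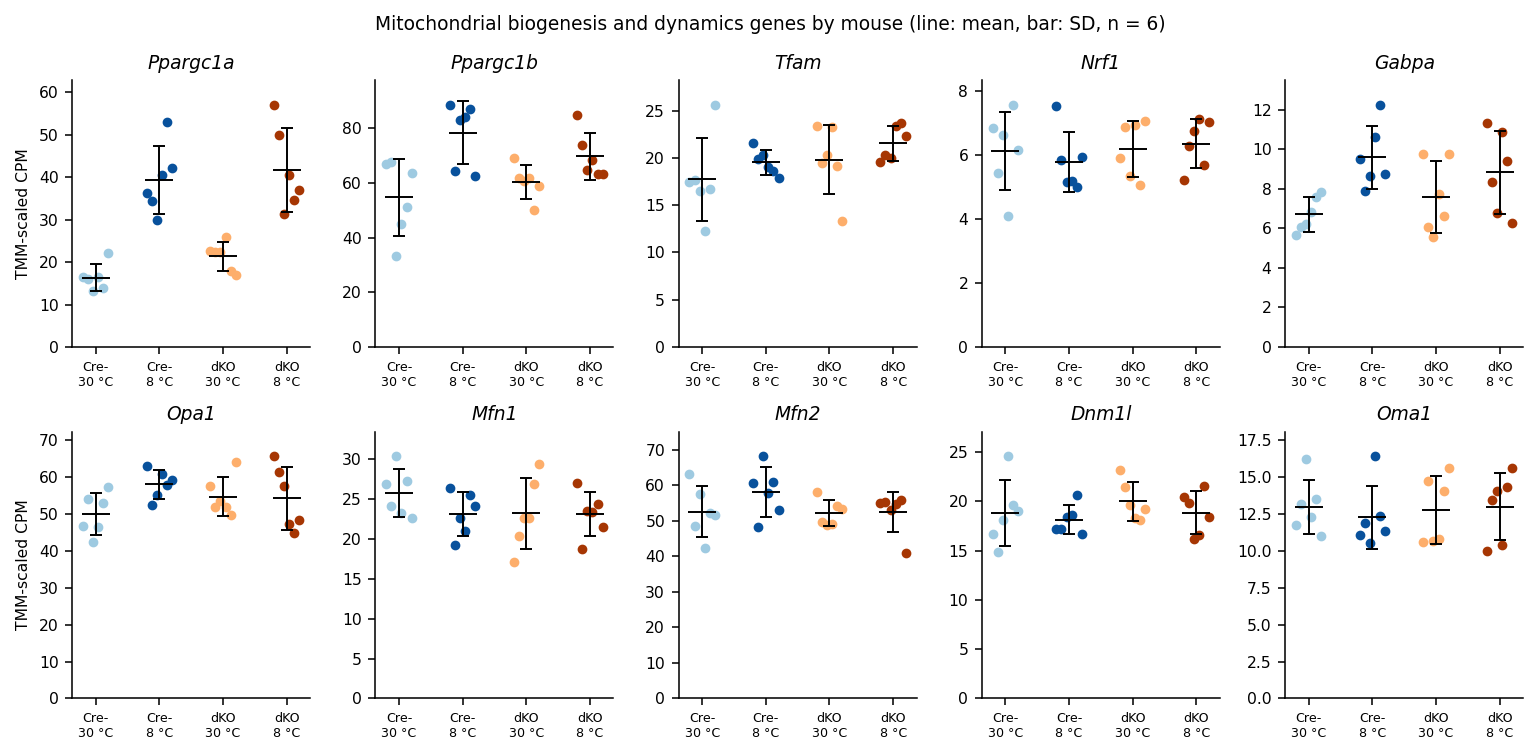
TMM-scaled CPM (vertical axes from 0) of the 10 genes in each mouse, with the mean and SD of 6 mice per group. Ppargc1a lies between 13.1 and 26.0 in all warm mice and between 29.9 and 57.1 in all cold mice, and no other gene separates the cold from the warm mice in both genotypes.

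Ppargc1a (ENSMUSG00000029167, GRCm38 chr5:51454250-51567726, minus strand) encodes the coactivator that is best known for its induction in cold brown fat. The 200 bases before its RefSeq start (GRCm38.p6, chr5:51567726-51567925, minus strand) are shown because the gene had the largest change of the 10, with capitals for the reverse complement of TGACGT, 6 letters of the cyclic AMP response element.
Ppargc1a: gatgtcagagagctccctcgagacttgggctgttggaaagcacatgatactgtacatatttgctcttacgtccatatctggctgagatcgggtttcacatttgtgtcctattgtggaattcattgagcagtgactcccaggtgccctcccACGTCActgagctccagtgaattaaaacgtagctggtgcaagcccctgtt
In Cre- mice at 30°C, Ppargc1a was lowest at 13.1 CPM in m3, with a median of 16.2 and a highest value of 22.2 in m6. In Cre- mice at 8°C it ran from 29.9 through a median of 38.4 to 52.9 CPM. Every cold control mouse was above every warm one. The fold change was 2.41 (log2 1.27, SE 0.16, 95% interval 0.95 to 1.59, adjusted p = 3.71e-06). In BATdKO mice the values were 17.0, 22.5 and 26.0 CPM (lowest, median, highest) at 30°C and 31.4, 38.8 and 57.1 CPM at 8°C. These groups did not overlap either, and the fold change was 1.93 (log2 0.95, SE 0.15, 95% interval 0.64 to 1.26, adjusted p = 0.00023). Groups of 6 that do not overlap, with the cold above the warm, were found for 2.19% of all genes in Cre- and 1.75% in BATdKO mice, and for Ppargc1a and Gabpa in Cre- and Ppargc1a in BATdKO mice among the 10. By median the order was Cre- at 30°C, BATdKO at 30°C, Cre- at 8°C and BATdKO at 8°C. The first 2 of these groups overlapped, as did the last 2.

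Between genotypes, Ppargc1a differed by 0.07 at 8°C (SE 0.15, 95% interval -0.23 to 0.37, adjusted p = 0.96). At 30°C it stood 0.39 higher under the BATdKO label (SE 0.16, 95% interval 0.07 to 0.71), with an unadjusted p of 0.0203 and an adjusted p of 0.371, so that it was not called. The size of the cold difference itself differed between genotypes by -0.32 (SE 0.21, 95% interval -0.76 to 0.12, adjusted p = 0.734). Mouse m6 of the warm Cre- group had a Ppargc1a of 22.2 CPM, far above the next highest of its group (16.4), and its Ucp1, at 548 CPM against a group median of 130, was the highest too. Its Tbl1xr1 (38.6 CPM) and Tbl1x (53.5 CPM) were also the highest of its group, whose medians were 21.7 and 39.9. Mouse m6 of the warm BATdKO group was the lowest of its group for each of these genes. It had 17.0 CPM of Ppargc1a, 84.7 of Ucp1, 17.0 of Tbl1xr1 and 39.7 of Tbl1x, against medians of 22.5, 314, 34.5 and 55.1. In these genes each mouse lay nearer the other group's median, and the reason was not tested. Without m6 of the warm Cre- group, Ppargc1a was called for genotype at 30°C with a log2 fold change of 0.53 (adjusted p = 0.0917), beside 369 genes called in that fit where none had been. The value was smaller and not called without m1, m3 and m4 of that group (0.30, adjusted p = 0.877). With the share of the 4 adipocyte markers as a covariate, whose medians in the warm groups were 0.0971% (Cre-) and 0.202% (BATdKO), it was 0.24 (adjusted p = 0.388), and with the hepatocyte share it was 0.31 (adjusted p = 0.529), both in fits added after the data were seen. With all libraries, edgeR called 0 genes for genotype at 30°C, with 1303 at an unadjusted p under 0.05, and DESeq2 called 92, none of the 10 among them.

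The same covariates were entered one at a time for cold. The hepatocyte share, taken on library totals, itself had medians of 4.06% and 3.44% in Cre- mice at 30°C and 8°C. As a covariate it thus overlaps with temperature, and a call lost with it does not assign the difference to hepatocyte RNA. The cold difference of Ppargc1a was 1.22 in Cre- and 0.95 in BATdKO mice with the adipocyte share, and 1.10 and 0.88 with the hepatocyte share, and it was called in all of these. It was also called in each of the 24 fits that left out a library, at 1.16 to 1.40 in Cre- and 0.85 to 1.01 in BATdKO mice. Without the 3 libraries of Cre- mice at 30°C with the lowest depth or the most muscle RNA (m1, m3 and m4), it was 1.18 (adjusted p = 0.000436).

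Ppargc1b (ENSMUSG00000033871, chr18:61298136-61400431, minus strand) encodes PGC-1β, the close relative that supports mitochondrial gene expression with less dependence on adrenergic signals. Its levels were 33.1, 57.6 and 67.8 CPM in Cre- mice at 30°C (lowest, median, highest) and 62.7, 83.6 and 88.7 CPM at 8°C. The groups overlapped, since 2 of the 6 cold mice, m2 and m6, lay within the warm range. The log2 fold change of 0.49 (SE 0.13, 95% interval 0.22 to 0.77) was called (adjusted p = 0.0233). In BATdKO mice the values were 50.1, 61.2 and 69.2 CPM at 30°C and 63.2, 66.5 and 85.0 CPM at 8°C, a difference of 0.20 (95% interval -0.07 to 0.47, adjusted p = 0.47). The difference between the cold responses did not pass the test, with an interaction of -0.29 (95% interval -0.68 to 0.09, adjusted p = 0.722). The call in Cre- mice was kept in 24 of 24 fits that left out a library, at 0.37 to 0.56. It was lost without m1, m3 and m4 of the Cre- group at 30°C (0.36, adjusted p = 0.129) and with the hepatocyte share as a covariate (0.27, adjusted p = 0.214), and kept with the adipocyte share (0.42, adjusted p = 0.00901).

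The coactivators differed in the size of their cold change. The count of Ppargc1a per count of Ppargc1b in the same library, which needs no scaling between libraries, was 0.309 ± 0.0682 (SD, n = 6) in Cre- mice at 30°C and 0.510 ± 0.118 at 8°C, and 0.354 ± 0.0447 and 0.593 ± 0.0736 in BATdKO mice. The log2 difference with cold was 0.72 in Cre- mice (two-sided exact permutation test, p = 0.00649, adjusted over 8 such tests 0.026) and 0.74 in BATdKO mice (exact permutation p = 0.00216, adjusted 0.0173, the smallest p that 6 against 6 allow). Genotype differences of the ratio were 0.24 at 8°C and 0.21 at 30°C, each with an adjusted p of 0.284 in the exact permutation test. The ratio was chosen after the values of both genes were seen, from the same counts as the fits above, so its tests are no independent support. Tags of different genes are not equally captured, so only the change of the ratio between groups has a meaning.

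Gabpa (ENSMUSG00000008976, chr16:84834925-84863779, plus strand) encodes the DNA-binding subunit of the factor also known as NRF2 in the older mitochondrial literature. Its counts were low, 5 to 98 per library. In Cre- mice it ran from 5.67 through 6.53 to 7.82 CPM at 30°C and from 7.86 through 9.10 to 12.3 CPM at 8°C, so that the highest warm and lowest cold mouse were separated by a small gap. The log2 fold change was 0.53 (SE 0.16, 95% interval 0.20 to 0.86, adjusted p = 0.0467). In BATdKO mice the ranges overlapped widely, with 5.56, 7.17 and 9.76 CPM at 30°C and 6.26, 8.88 and 11.3 CPM at 8°C (0.20, 95% interval -0.14 to 0.53, adjusted p = 0.589). The interaction was -0.34 (95% interval -0.80 to 0.13, adjusted p = 0.739). The call in Cre- mice was the least firm of the 3. It was lost in 3 of 24 fits that left out a library (m1 of Cre- at 30°C, and m4 or m5 of Cre- at 8°C, with adjusted p up to 0.123), without the 3 warm control libraries (0.43, adjusted p = 0.295), with the hepatocyte share as a covariate (0.36, adjusted p = 0.295) and with library totals in place of TMM (0.36, adjusted p = 0.116). The start of Gabpa overlaps exon sequence of Atp5j on the other strand, and whether reads were counted by strand was not stated. The shared stretch, chr16:84834925-84835543, is at the 5′ end of Gabpa, away from where 3′ tags fall.

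Nrf1 (ENSMUSG00000058440, chr6:30047988-30153458, plus strand) encodes the other nuclear respiratory factor and was the most sparsely counted of the 10, with 3 to 87 counts per library. Its medians were 6.40 and 5.52 CPM in Cre- mice at 30°C and 8°C, and 6.40 and 6.53 CPM in BATdKO mice. The 4 groups overlapped, with all 24 values between 4.10 and 7.59 CPM. The cold differences were -0.15 (95% interval -0.42 to 0.12) in Cre- and 0.03 (-0.24 to 0.30) in BATdKO mice.

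Tfam (ENSMUSG00000003923, chr10:71225464-71238280, minus strand) is a textbook target of both respiratory factors. The 100 bases before its RefSeq start (GRCm38.p6, chr10:71238045-71238144, minus strand) are shown because they hold the letters of the GABPA core, CCGGAAGT, in capitals.
Tfam: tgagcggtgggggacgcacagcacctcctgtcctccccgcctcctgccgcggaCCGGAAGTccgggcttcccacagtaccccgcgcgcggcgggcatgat
Tfam was at 12.3, 17.1 and 25.6 CPM in Cre- mice at 30°C (lowest, median, highest) and at 17.8, 19.5 and 21.5 CPM at 8°C. The cold values lay inside the warm range. In BATdKO mice it was at 13.4, 19.9 and 23.4 CPM at 30°C and 19.6, 21.3 and 23.7 CPM at 8°C. The cold differences were 0.08 (95% interval -0.17 to 0.33, adjusted p = 0.821) and 0.12 (-0.13 to 0.37, adjusted p = 0.673). The spread among mice was wider in the warm than in the cold in both genotypes, with coefficients of variation of 24.6% and 6.78% in Cre- and 18.5% and 8.48% in BATdKO mice, a contrast that was not tested. It leaned on few libraries. The lowest warm Cre- value was that of m4, from 9 counts, the highest that of m6, and the lowest warm BATdKO value that of m6.

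Of 9 genes of the 10 with a RefSeq promoter window used here (13 windows of 300 bases, 250 of them before the start), 5 held at least 1 of 5 motifs searched on both strands. The share of all 32851 windows with each motif was 1.79% for TGACGTCA (the whole cyclic AMP response element), 7.51% for TGACGT (which the whole element contains), 2.71% for GCGCATGC (the NRF1 core), 3.89% for CCGGAAGT (the GABPA core) and 0.423% for TCAAGGTCA (the estrogen-related receptor element). Ppargc1a held TGACGT, beginning 50 bases before the start, and Mfn2 held it in 3 partly overlapping windows. CCGGAAGT stood 47 bases before the RefSeq start of Tfam and 44 before that of Mfn1. The GENCODE interval given for Tfam reaches past its RefSeq start and contains the printed stretch. That given for Mfn1 begins within the bases printed below. In Opa1 the NRF1 core was matched on both strands, in overlapping letters from 59 and 57 bases before the start. No window of the 9 genes held the whole cyclic AMP element or the estrogen-related receptor element. Nothing about binding follows from these letters.

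The fusion GTPases had no called difference with TMM scaling in any comparison. The 100 bases before the starts of Mfn1 (GRCm38.p6, chr3:32529382-32529481, plus strand) and Opa1 (chr16:29579234-29579333, plus strand) are shown because they carry the cores of GABPA and NRF1, in capitals, in genes that were not called in the fit with TMM scaling.
Mfn1: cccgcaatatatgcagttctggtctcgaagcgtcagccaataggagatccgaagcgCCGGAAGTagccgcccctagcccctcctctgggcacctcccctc
Opa1: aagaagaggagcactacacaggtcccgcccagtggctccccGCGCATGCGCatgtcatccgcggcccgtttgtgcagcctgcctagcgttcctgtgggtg
Opa1 (ENSMUSG00000038084, chr16:29579334-29654884, plus strand) was at 42.4, 49.9 and 57.2 CPM in Cre- mice at 30°C and 52.3, 58.5 and 63.1 CPM at 8°C. The difference of 0.21 (95% interval 0.02 to 0.40) had an unadjusted p of 0.0355 and an adjusted p of 0.222. In BATdKO mice it was at 49.6, 52.7 and 64.1 CPM at 30°C and 45.0, 53.0 and 65.8 CPM at 8°C, with a difference of -0.02 (95% interval -0.21 to 0.17). Mfn1 (ENSMUSG00000027668, chr3:32529465-32579239, plus strand) was at 22.6, 25.5 and 30.4 CPM in Cre- mice at 30°C and 19.2, 23.4 and 26.4 CPM at 8°C (-0.17, 95% interval -0.40 to 0.06). Its BATdKO medians were 22.7 and 23.5 CPM (-0.02, 95% interval -0.26 to 0.21). Mfn2 (ENSMUSG00000029020, chr4:147873599-147904704, minus strand), a mitofusin that also tethers mitochondria to the endoplasmic reticulum, was at 42.4, 51.9 and 63.2 CPM in Cre- mice at 30°C and 48.2, 59.4 and 68.3 CPM at 8°C (0.12, 95% interval -0.07 to 0.31). Its BATdKO medians were 51.5 and 54.8 CPM (0.01, 95% interval -0.18 to 0.20). The upper bounds of the cold differences of all 3 fusion genes were below the lower bound of that of Ppargc1a in both genotypes. With library totals in place of TMM, Mfn1 was called lower with cold in Cre- mice (-0.35, adjusted p = 0.0567) and Opa1 in BATdKO mice (-0.22, adjusted p = 0.0914).

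Dnm1l (ENSMUSG00000022789, chr16:16312230-16358959, minus strand) was at 14.8, 18.6 and 24.6 CPM in Cre- mice at 30°C and 16.7, 17.8 and 20.7 CPM at 8°C, a difference of 0.01 (95% interval -0.19 to 0.21). In BATdKO mice it was at 18.1, 19.4 and 23.2 CPM at 30°C and 16.2, 19.1 and 21.6 CPM at 8°C (-0.09, 95% interval -0.29 to 0.11), and with library totals in place of TMM the latter was called lower (-0.28, adjusted p = 0.0636). Its 5′ end overlaps Gm49521 on the other strand. Summed counts of Opa1, Mfn1 and Mfn2 per count of Dnm1l, a within-library ratio of fusion to fission transcripts, were 7.03 ± 1.41 and 7.72 ± 0.702 in Cre- mice at 30°C and 8°C and 6.56 ± 0.796 and 6.96 ± 0.940 in BATdKO mice (SD, 6 mice per group). None of its 4 pairwise differences, from -0.16 to 0.16 on the log2 scale, passed the exact permutation test (lowest adjusted p = 0.284). Oma1 (ENSMUSG00000035069, chr4:103313812-103371868, plus strand), whose protein cuts OPA1 when the inner membrane is stressed, had medians of 12.7 and 11.6 CPM in Cre- and 12.4 and 13.8 CPM in BATdKO mice. Its cold differences were -0.07 (95% interval -0.35 to 0.21) and 0.04 (-0.24 to 0.32). All 4 groups of Oma1 overlapped, with values from 10.0 to 16.4 CPM.

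**Figure D3:**
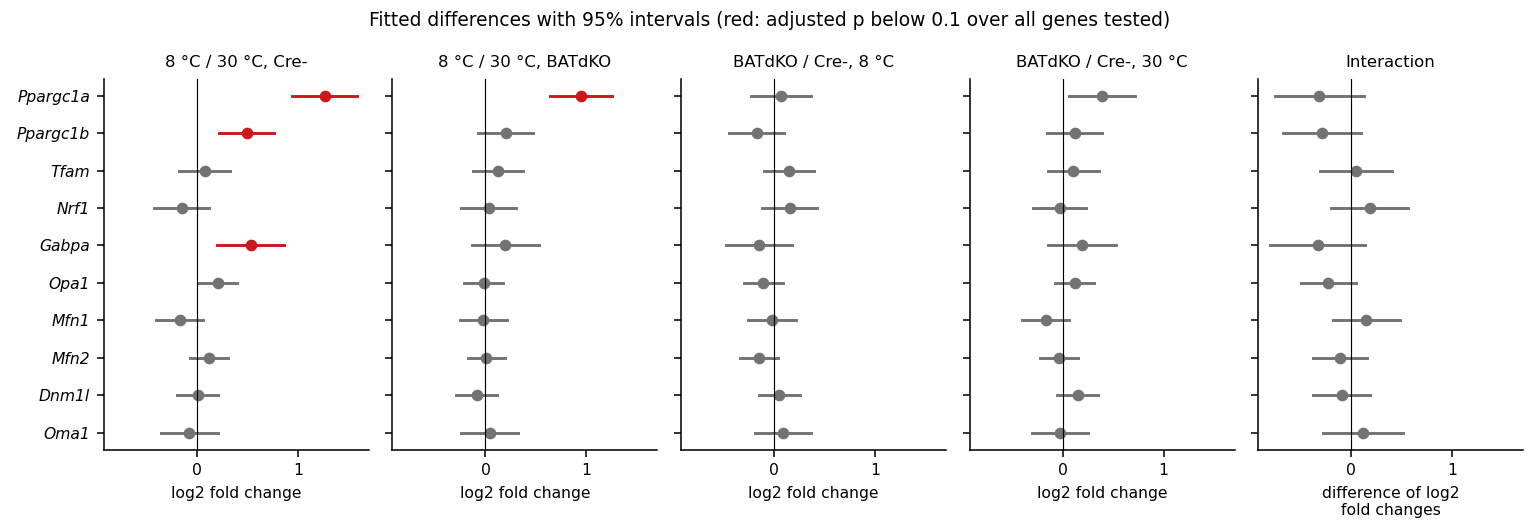
Fitted log2 fold changes (points) with 95% intervals (lines) of the 10 genes for cold in each genotype, BATdKO over Cre- at each temperature, and the interaction, with called genes in red. Cold intervals clear of 0 and called are those of Ppargc1a in both genotypes and of Ppargc1b and Gabpa in Cre- mice, and no gene is called in the other panels.

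None of the 10 was called for genotype with all libraries. At 8°C the fitted values lay between -0.17 (Ppargc1b, 95% interval -0.44 to 0.10) and 0.15 (Nrf1, 95% interval -0.12 to 0.43), and all 10 intervals included 0. At 30°C, 9 of 10 intervals included 0, the exception being Ppargc1a, whose interval of 0.07 to 0.71 reaches beyond the called cold differences of Ppargc1b and Gabpa in Cre- mice. The interaction intervals of all 10 included 0 as well. The 3 genes called in Cre- mice, and Opa1, had the most negative interaction values (-0.34 for Gabpa, -0.32 for Ppargc1a, -0.29 for Ppargc1b and -0.23 for Opa1, the last with an unadjusted p of 0.0979), and the other 6 lay between -0.11 and 0.18. The cold difference in Cre- mice is subtracted in the interaction, so genes picked for a high value there tend towards this end, and nothing is drawn from the order. The call of Ppargc1b and Gabpa in Cre- and not in BATdKO mice is therefore no measured difference between the genotypes.

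**Figure D4:**
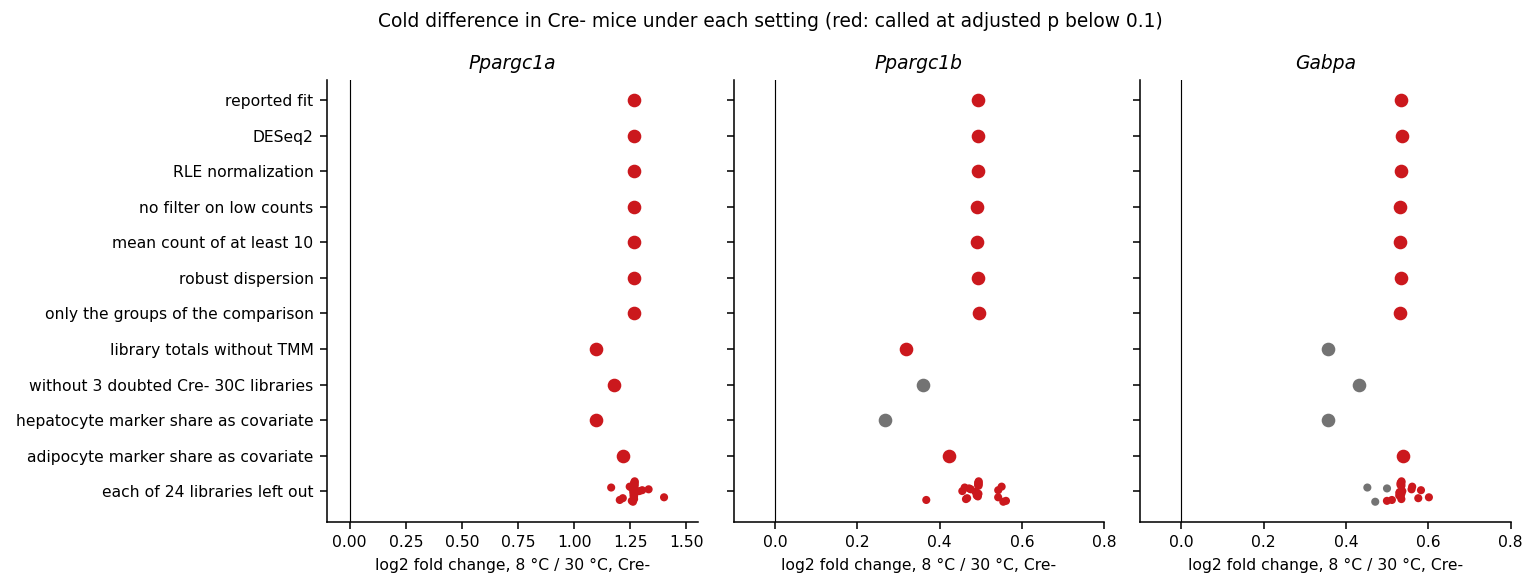
Log2 fold change with cold in Cre- mice of the 3 called genes under the reported fit, under each alternative and with each of 24 libraries left out, with fits in which the gene was called in red. Ppargc1a stays between 1.10 and 1.40 and is called throughout, while Ppargc1b and Gabpa lose their calls without 3 warm control libraries and with the hepatocyte covariate.

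Across the 24 libraries, Ppargc1a followed Ppargc1b with a Pearson r of 0.724 on log2 CPM, and with 0.507 once group means were removed. Ppargc1b followed Opa1 with 0.659, and 0.577 without group means. Tfam followed Ppargc1a with 0.452 and Nrf1 with 0.26, whereas Mfn1 and Tfam had the most negative value of the pairs, -0.453. These are descriptions over libraries that share groups, depth and tissue make-up. The genes most like Ppargc1a over 24 libraries were Dio2, the deiodinase that makes active thyroid hormone in brown fat (r = 0.957), the mitochondrially encoded mt-Nd2 (r = 0.925) and Letm1, which encodes an inner membrane protein of ion exchange and cristae shape (r = 0.924). Those most like Ppargc1b were Acadl, the long-chain acyl-CoA dehydrogenase gene (r = 0.916), Ahcyl1 (r = 0.893) and Idh3a, of the tricarboxylic acid cycle (r = 0.887). For the other 8 genes the best partner was less close: Mocs2 for Tfam (r = 0.860), Klhl26 for Mfn2 (0.823), Fam213a for Opa1 (0.797), Plekha6 for Oma1 (0.796), Clybl for Gabpa (0.795), Pelp1 for Mfn1 (0.767), Zfp661 for Nrf1 (0.745) and Gm45733 for Dnm1l (0.691).

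Genes that act with the 10 were counted by list, against 9.15% of all genes called for cold in Cre- mice (5.57% higher) and 7.07% in BATdKO mice (3.76% higher). The 13 mitochondrially encoded proteins, which are the transcripts that TFAM serves, had the largest median difference with cold of the 8 lists, 0.62 in Cre- mice with 9 called higher and 0 lower, and 0.51 in BATdKO mice with 10 higher and 0 lower, beside all-gene medians of -0.02 and 0.00. mt-Nd6 rose by 0.83 (SE 0.12, adjusted p = 5.25e-05), mt-Nd1 by 0.77 (SE 0.13, adjusted p = 0.000213) and mt-Nd5 by 0.77 (SE 0.14, adjusted p = 0.000449) in Cre- mice. In BATdKO mice the smallest p-values were those of mt-Nd1 (0.78, adjusted p = 0.000365), mt-Co3 (0.44, adjusted p = 0.00219) and mt-Atp6 (0.58, adjusted p = 0.00551). The list's median stayed above 0 with library totals in place of TMM (0.46 and 0.31). Its calls in Cre- mice went from 9 to 4 both without the 3 warm control libraries and with the hepatocyte share as a covariate. Nuclear copies of mitochondrial genes are nearly identical to them, so how reads were split between the copies is uncertain. The share of counts on the 13 genes was 13.6% to 18.4% and 12.4% to 18.8% in the warm groups (Cre-, BATdKO) and 18.2% to 21.2% and 17.5% to 21.9% in the cold ones.

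Among 20 tested genes of mitochondrial DNA replication and transcription, the machinery TFAM works with, 2 were called higher in the cold in Cre- mice and 3 in BATdKO mice, with none lower, where 5.57% and 3.76% of all genes were called higher, and the list medians were 0.07 and -0.02. Counts of 2 of 20, and of 1 of 28 below, lie near those shares. Tfb2m, the promoter-melting factor that acts beside TFAM, was called in both (0.49, adjusted p = 0.0184, and 0.45, adjusted p = 0.0368). Mgme1, a mitochondrial exonuclease gene, was called in Cre- mice (0.44, adjusted p = 0.082). Polrmt, the mitochondrial RNA polymerase gene, and Dguok, a deoxyguanosine kinase gene, were called in BATdKO mice (0.41, adjusted p = 0.0364, and 0.38, adjusted p = 0.099). Of 73 mitochondrial ribosomal proteins, 9 were called higher and 1 lower in Cre- mice (list median 0.08), and 6 and 1 in BATdKO mice (median 0.13), with Mrpl20 higher (0.66 and 0.47) and Mrps6 lower (-0.42 and -0.48) in both. Of 28 import and chaperone genes, 6 were called higher in Cre- (median 0.20) and 1 in BATdKO mice (median 0.19), and none lower. Hspa9, the mitochondrial HSP70 of the import motor, was called in both (0.55, adjusted p = 0.00213, and 0.36, adjusted p = 0.0625). Grpel1, its exchange factor, and Timm10, a chaperone of the intermembrane space, were called in Cre- mice (0.39, adjusted p = 0.0411, and 0.35, adjusted p = 0.0486). Relative to library totals, without TMM, more ribosomal genes were called lower than higher (10 and 2 in Cre-, 7 and 3 in BATdKO mice), and the counts were 3 lower and 1 higher in each genotype for the replication list, and 3 lower and 2 higher in Cre- mice and 0 in BATdKO mice for import. Without the 3 warm control libraries the Cre- calls fell to 0 for the replication list, to 1 higher and 1 lower for the ribosome, and to 1 higher and 1 lower for import. With the hepatocyte share as a covariate they fell to 0, to 2 higher and 2 lower, and to 1 higher.

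**Figure D5:**
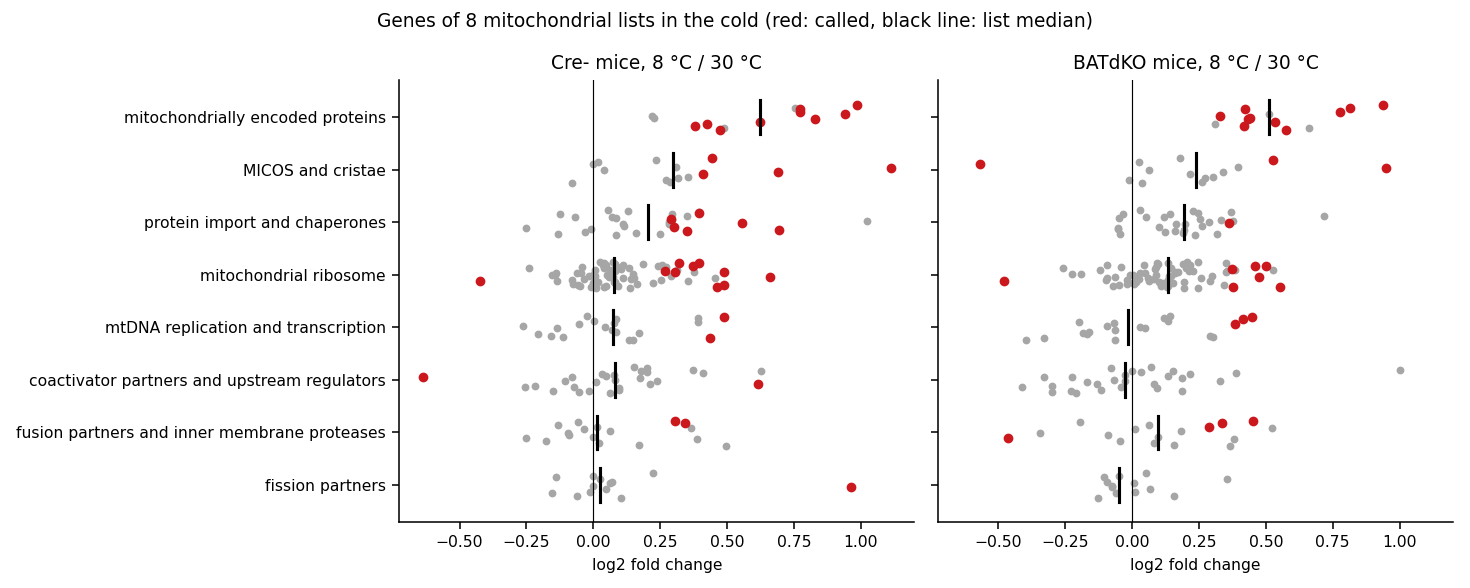
Log2 fold changes with cold of the genes of 8 mitochondrial lists in Cre- (left) and BATdKO (right) mice, with called genes in red and list medians as black lines. The mitochondrially encoded genes have the highest medians (0.62 and 0.51), and the fission partners lie about 0 (0.03 and -0.05) with Spire1 as the lone call in Cre- mice.

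Closest to Opa1 in function are 14 genes of the MICOS complex and cristae, of which 4 were called higher and 0 lower in Cre- mice (median 0.30), and 2 higher and 1 lower in BATdKO mice (median 0.24). Letm1 rose by 1.11 (SE 0.13, adjusted p = 1.26e-06) and 0.95 (SE 0.12, adjusted p = 2.11e-05), close in size to Ppargc1a. Its values were 55.1 to 104.7 CPM in Cre- mice at 30°C and 139.5 to 191.4 CPM at 8°C, and 63.5 to 100.1 and 139.0 to 190.8 CPM in BATdKO mice, with no overlap in either genotype. Dnajc11 and Immt, the latter encoding the MICOS core protein mitofilin, were called in Cre- mice (0.41, adjusted p = 0.0161, and 0.44, adjusted p = 0.0291). Chchd10 was called higher (0.53, adjusted p = 0.0115) and Chchd6 lower (-0.57, adjusted p = 0.0682) in BATdKO mice. Without the 3 warm control libraries, Letm1 was the only gene of the list called in Cre- mice (0.96, adjusted p = 0.00021), and with the hepatocyte share as a covariate the list again had 1 call.

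Of 17 fusion partners and inner membrane proteases, 2 were called higher in Cre- mice (median 0.01), and 3 higher and 1 lower in BATdKO mice (median 0.10), beside 9.15% and 7.07% of all genes called. The Cre- count is near the share of all genes. Phb, a prohibitin gene, was called in both genotypes (0.31, adjusted p = 0.0328, and 0.45, adjusted p = 0.00175), as was March5, a ubiquitin ligase gene of the outer membrane (0.34, adjusted p = 0.0763, and 0.34, adjusted p = 0.0973). Opa3 was called higher (0.29, adjusted p = 0.0721) and Usp30, a deubiquitinase gene, lower (-0.46, adjusted p = 0.0792) in BATdKO mice. With library totals in place of TMM, Opa3 (0.10, adjusted p = 0.49) and March5 (0.15, adjusted p = 0.321) lost these BATdKO calls, while Phb and Usp30 kept theirs. Of 13 fission partners, 1 was called in Cre- mice, a count near the share of all genes, and 0 in BATdKO mice with edgeR, where 0 had an unadjusted p under 0.05 and DESeq2 also called 0. The gene called was Spire1, an actin nucleator gene (0.96, adjusted p = 0.0265), and with the hepatocyte share as a covariate its difference was 0.49 and the call was lost (adjusted p = 0.316). The adaptor genes Fis1, Mff, Mief1 and Mief2, whose proteins recruit DRP1, were not called in either genotype. In Cre- mice 0 of the 17 fusion partners were called without the 3 warm control libraries, and 0 with the hepatocyte share as a covariate, whereas with library totals in place of TMM 3 were called lower and 0 higher.

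Of 28 measured partners and upstream regulators of the coactivators, 1 was called higher and 1 lower with cold in Cre- mice (median 0.08), and 0 in BATdKO mice (median -0.03), where 5 had an unadjusted p under 0.05 and DESeq2 called 1. The Cre- count is below the 9.15% of all genes called. The 2 genes encode subunits of AMP-activated protein kinase, an energy sensor. Prkaa1, its α1 catalytic subunit gene, was called higher (0.62, SE 0.17, adjusted p = 0.0218) and Prkag2, a γ regulatory subunit gene, lower (-0.64, SE 0.12, adjusted p = 0.000743). With the hepatocyte share as a covariate the call of Prkaa1 was lost (0.41, adjusted p = 0.186). The same genes were called for genotype at 8°C in the opposite sense, Prkaa1 lower under the BATdKO label (-0.79, SE 0.17, adjusted p = 0.0128) and Prkag2 higher (0.43, SE 0.12, adjusted p = 0.0781), the latter lost with library totals in place of TMM (0.37, adjusted p = 0.189). These comparisons share the Cre- mice at 8°C. In those mice Prkaa1 was at 7.02 to 10.2 CPM, against 4.10 to 8.97 in Cre- mice at 30°C, 4.21 to 7.27 in BATdKO mice at 30°C and 4.22 to 6.53 in BATdKO mice at 8°C, and the cold groups did not overlap. Between the genotypes at 8°C, groups that do not overlap were found for 1.95% of all genes. The interaction of Prkaa1 was -0.75 (SE 0.24, adjusted p = 0.374) and was not called.

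With these 2, 5 of the 206 genes of the 8 lists were called for genotype at 8°C, a share close to the 1.82% of all genes. In this comparison the muscle and progenitor markers had the negative values given above, and their part in it was not tested. The other 3 were Foxo1, Mterf4 and Spire1. Foxo1, a transcription factor gene of the insulin pathway, was higher under the BATdKO label (0.42, SE 0.09, adjusted p = 0.0127), as was Mterf4, which encodes a factor for mitochondrial ribosome assembly (0.54, SE 0.16, adjusted p = 0.0926), the latter call being lost with library totals (0.48, adjusted p = 0.102). Spire1 was lower (-1.36, SE 0.28, adjusted p = 0.00815), with 5.52 to 16.2 CPM in Cre- and 2.35 to 5.66 CPM in BATdKO mice at 8°C, ranges that touched in a narrow overlap. Of the 206 genes of the 8 lists, edgeR called 0 for genotype at 30°C (22 at an unadjusted p under 0.05, and DESeq2 called 1) and 0 for the interaction (10 at an unadjusted p under 0.05, and DESeq2 called 0).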

How the data were processed

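From QuantSeq forward libraries of 3′ tags, the authors deposited raw counts per gene, made by BBDuk trimming, STAR alignment (GRCm38) and Rsubread counting. The published methods state that outliers were taken out after quality control, and the figure legend gives fewer mice per group. All 24 libraries were fitted here, so the sets of samples differ. The annotation release and strand setting are not given in the sources used here. Totals ran from 699703 to 11527643 counts, and the shallowest library limits the rarest genes.

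Columns were matched to mice by name. Genes were matched by Ensembl identifier (12608 of 12615 had a symbol). Counts were fitted in R 4.3.3 with edgeR 4.0.16 (limma 3.58.1): TMM, filterByExpr (130 genes removed), 4 group means, quasi-likelihood F tests and Benjamini-Hochberg adjustment over 12485 genes, at a threshold of 0.1. SE and 95% intervals come from the F statistic, and for Nrf1, Oma1 and Mfn2, where edgeR bounds some p-values, they may be too narrow. Correlations used log2 CPM with a prior count of 2. All members were named, and up to 3 genes per list and direction by smallest p. Positions are from GENCODE vM21, promoters from RefSeq. Alternatives were DESeq2 1.42.0 and the settings of the closing section. The fits were tested on simulated data. Members and lists were chosen with earlier results of these data known.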

Additional observations from a re-analysis of the deposited data

Results flagged for a closer look

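In 4 of 40 sets of 6 mice (10 genes in 4 groups), the mouse at one end lay far from the others by Dixon's gap ratio at the 95% level, which chance gives in about 1 set in 20. In Cre- mice at 30°C, Ppargc1a was 22.2 CPM in m6 against 16.4 in the next mouse. In Cre- mice at 8°C, Nrf1 was 7.55 CPM in m1 against 5.94, and Oma1 was 16.4 CPM in m4 against 12.4. In BATdKO mice at 8°C, Mfn2 was 41.1 CPM in m6 against 53.1 in the next lowest. For Nrf1, Oma1 and Mfn2, no call changed when any of these mice was left out.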

How the results depend on the processing

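Of 1740 values for the 50 combinations of gene and comparison, 1728 kept their side of the threshold, 8 lost a call, 4 gained one and 0 called values changed sign. No paired analysis was possible because the mouse numbers pair no mice between groups. With DESeq2, 92 genes were called for genotype at 30°C and 51 for the interaction, with robust dispersion 21 for the interaction, and with only the groups of the comparison 477 for genotype at 8°C. At a threshold of 0.05 the genes called were 757 (cold, Cre-), 543 (cold, BATdKO), 140 (genotype at 8°C) and 7 (interaction). The rest was added after the data were seen. With library totals, 3259, 2812 and 27 genes were called for cold in Cre-, cold in BATdKO and the interaction, and 3 of the 10 genes for cold in BATdKO mice. Without 3 Cre- libraries at 30°C the counts were 645 (cold, Cre-), 349 (genotype at 8°C) and 26 (interaction), with 1 of the 10 genes for cold in Cre- mice. With the hepatocyte share they were 729 (cold, Cre-) and 26 (interaction), again with 1 of the 10 genes in Cre- mice. With the adipocyte share they were 1543 (cold, BATdKO), 661 (genotype at 8°C), 826 (genotype at 30°C) and 77 (interaction). Leaving out each library in turn gave 791 to 1343 genes (cold, Cre-), 574 to 1069 (cold, BATdKO), 138 to 276 (genotype at 8°C), 0 to 369 (genotype at 30°C) and 7 to 37 (interaction), and 2 to 3, 1 to 1, 0 to 0, 0 to 1 and 0 to 0 of the 10 genes. The cause of these shifts was not tested.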
